A study of Mus musculus with 6 samples.

Results

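The 10 genes of the vascular endothelial growth factor (VEGF) family described here were the ligands Vegfa, Vegfb, Vegfc, Figf and Pgf, the receptor tyrosine kinases Flt1, Kdr and Flt4, and the neuropilins Nrp1 and Nrp2. They were found by their names in the array design, which lists 28909 gene names, and were read by 14 probes, with a pair of probes each for Vegfa, Flt1, Kdr and Nrp2. Total RNA came from the cardiac muscle of male C57BL/6 mice. There were 3 sham and 3 tail-suspension samples, each taken as a single mouse and each on its own 1-colour array. Tail-suspension, which unloads the hindlimbs to simulate microgravity, lasted 28 days, and sham mice lived in the same space and on the same feeding conditions without it. In the labels the mice are 10 weeks old when suspension begins and 11 weeks old as sampled, which cannot both hold over 28 days. No animal carried a transgene or received a drug according to the labels.

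VEGF ligands are secreted dimers that bind receptor tyrosine kinases, mostly on endothelial cells. VEGF-A acting on Kdr is the main signal for growth and permeability of blood vessels, whereas Flt1 binds VEGF-A tightly and signals weakly, so that it also acts as a trap. VEGF-C and VEGF-D, the product of Figf, act on Flt4 and on lymphatic vessels. Neuropilins are co-receptors without a kinase of their own and also bind class 3 semaphorins.

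In tail-suspended hearts, Nrp2 was 2.27-fold lower by its brighter probe and 2.39-fold lower by its other probe, Vegfc was 1.60-fold lower and Kdr was 1.47-fold lower by its brighter probe. Figf was 2.34-fold higher and Pgf, which encodes placental growth factor, was 2.28-fold higher. No change was called for Vegfa, Vegfb, Flt1, Flt4 and Nrp1. In all, 6 of the 14 probes passed an adjusted p of 0.05 (limma, Benjamini-Hochberg over the 28032 tested probes), 2 of them higher and 4 lower in tail-suspension, which is 42.9% of the probes. Over all tested probes 20.2% passed, 10.6% as higher and 9.6% as lower, and with 1 probe per gene 21.1% of genes passed, against 5 of the 10 genes here. The 3 tail-suspended hearts lay wholly above the sham hearts for 3 of the 14 probes and wholly below for 5, where all tested probes gave 21.9% above and 22% below, 43.9% in all. By the 2-group test named in the study's methods 8 probes passed without adjustment and 3 with it, where 33.9% and 9.49% of all tested probes did. The median log2 fold change was -0.19 over the 14 probes and -0.01 over all tested probes. With the slide row as a block, tail-suspension is compared with sham by its replicate 1 alone. Each of the 6 called probes kept its direction in that fit (values beside each gene below), which is not a separate check on them.

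The 60-base probes behind the called changes are shown by their first 30 bases, so that each measurement can be traced to its stretch of the transcript. They are written 5′ to 3′ in the sense of the transcript, in lower case, and no base is marked. Coordinates are those of the array files for the whole probe on mouse build mm9. The exon or untranslated region of each probe is not given, because no annotation of that build was used here. For Kdr and Nrp2 both probes are shown, since they were compared with each other.
Figf, chrX:160840395-160840454, plus strand: ggctggcaaagtccaagggcaatgctcatg
Pgf, chr12:86508335-86510337, minus strand: tagaaactcacagactgaggaaccccaccc
Vegfc, chr8:55271533-55271592, plus strand: tctgtgtttattgaaccatgtggattactg
Kdr, brighter probe, chr5:76329309-76329368, minus strand: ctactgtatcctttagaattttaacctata
Kdr, second probe, chr5:76330395-76330454, minus strand: tgtttaaatggaagtggtcctgtcccggct
Nrp2, brighter probe, chr1:62865129-62865188, plus strand: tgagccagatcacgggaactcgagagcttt
Nrp2, second probe, chr1:62843298-62843357, plus strand: ggtttctgttggctgtcattgtcatctcca
The genomic span of the Pgf probe was 2003 bases for a probe of 60, so it crosses an intron, while each of the other 13 probes lay in 60 continuous bases. The starts of the Kdr probes lay 1086 bases apart and those of the Nrp2 probes 21831 bases apart. The probes shown therefore read separate stretches of the same gene.

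Each level below is the processed intensity of a probe divided by the 75th percentile of the intensities on its array. That percentile lay between 300.01 and 318.89 on the 3 sham arrays and between 337.72 and 375.04 on the 3 tail-suspension arrays. On the 6 arrays 50.9% to 53.4% of all probes were well above background and 0 spots were saturated. All 14 probes were well above background on all 6 arrays. All arrays were on 1 slide read in 1 scan, with tail-suspension replicate 1 in the same slide row as the 3 sham arrays and its replicates 2 and 3 in the other row. Labelling and hybridisation differ from probe to probe, so levels of different probes are not ranked. In bulk heart RNA, fewer cells of a type and less RNA per cell cannot be told apart. The labels give 3 replicates per group, each taken here as a single mouse, so the errors below are read as errors over animals. The number of arrays limits their precision.

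**Figure D1:**
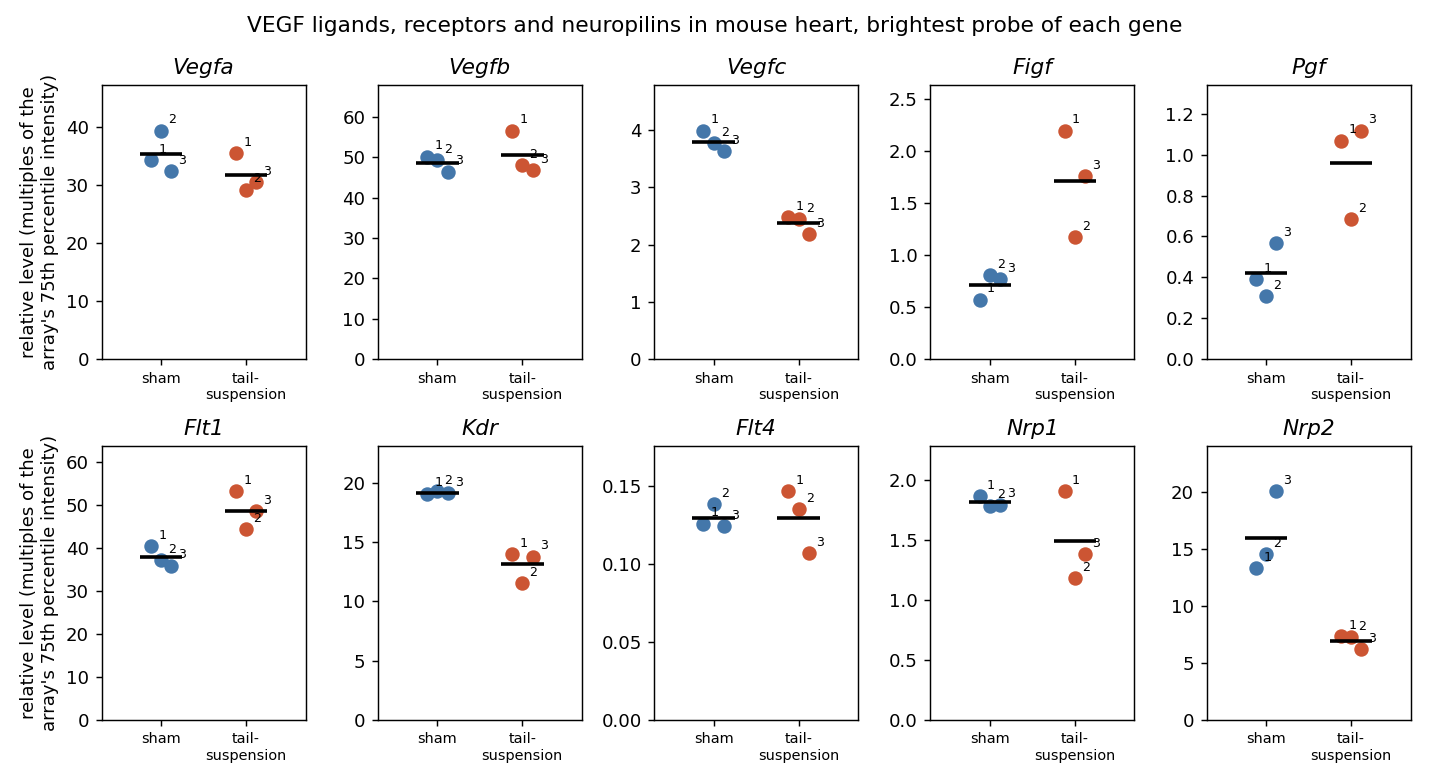
Level of each of the 10 genes on each array by its brightest probe, in multiples of the 75th percentile intensity of the array (each vertical axis starts at 0 and has its own scale). Points are single arrays with their replicate number (blue for sham, orange for tail-suspension, n = 3 each) and bars are group means. The groups are apart for Vegfc, Figf, Pgf, Flt1, Kdr and Nrp2 and overlap for Vegfa, Vegfb, Flt4 and Nrp1.

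Among the ligands, Figf and Pgf rose and Vegfc fell. Figf encodes VEGF-D, and its probe, averaged over 10 spots per array, gave 0.572, 0.808 and 0.769 in the 3 sham hearts and 2.19, 1.18 and 1.76 in the 3 tail-suspended hearts. All tail-suspended hearts lay above all sham hearts, with tail-suspension replicate 2 the lowest of its group. The log2 level rose from -0.50 ± 0.27 to 0.73 ± 0.46 (SD, n = 3 each), a difference of 1.22 with a standard error of 0.25 (adjusted p = 0.0211 by limma), or 2.34-fold with a 95% interval of 1.55 to 3.52. With the slide row as a block the log2 difference was 1.63 (adjusted p = 0.0627 by limma). Figf passed the threshold in 12 of 19 alternative settings. The adjusted p was 0.063 without sham replicate 1, 0.0579 without sham replicate 2 and 0.0689 without tail-suspension replicate 3, by limma.

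Pgf encodes a ligand of Flt1. Its levels were 0.393, 0.308 and 0.568 in sham and 1.07, 0.685 and 1.12 in tail-suspension. The groups did not overlap, although sham replicate 3 and tail-suspension replicate 2 were close to each other. Its log2 level rose by 1.19 with a standard error of 0.27 (adjusted p = 0.0299 by limma), from -1.29 ± 0.44 to -0.10 ± 0.39 (SD, n = 3 each), or 2.28-fold with a 95% interval of 1.45 to 3.60. With the slide row as a block the log2 difference was 1.38 (adjusted p = 0.147 by limma). Pgf passed the threshold in 12 of 19 alternative settings. The adjusted p by limma lay between 0.0819 and 0.0912 without each of sham replicates 1 and 2 and tail-suspension replicates 1 and 3.

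Vegfc encodes VEGF-C, the main growth factor of lymphatic vessels. Its levels were 3.99, 3.77 and 3.63 in sham and 2.48, 2.44 and 2.18 in tail-suspension. Every tail-suspended heart was below every sham heart, and both groups were narrow. The log2 level fell by 0.68 with a standard error of 0.09 (adjusted p = 0.00715 by limma), from 1.92 ± 0.07 to 1.24 ± 0.10 (SD, n = 3 each), which is 1.60-fold lower with a 95% interval of 1.37 to 1.87. It passed the threshold in 18 of 19 alternative settings, and in the one that did not, with the slide row as a block, the log2 difference was -0.61 (adjusted p = 0.0977 by limma). The ligands of Flt4 thus moved apart, Figf higher and Vegfc lower in the same hearts.

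Vegfa, whose product drives vessel growth and permeability, was measured by a pair of probes. The brighter gave 34.4, 39.5 and 32.4 in sham and 35.6, 29.2 and 30.6 in tail-suspension, and the other gave 6.62, 6.11 and 6.10 in sham and 6.59, 4.76 and 4.95 in tail-suspension. For both probes the groups overlapped, because tail-suspension replicate 1, which shared its slide row with the sham arrays, lay among the sham hearts. The log2 differences were -0.16 with a 95% interval of -0.44 to 0.13 (adjusted p = 0.376 by limma) and -0.22 with an interval of -0.56 to 0.11 (adjusted p = 0.288 by limma). With the slide row as a block they were 0.01 and 0.07. Vegfb encodes a ligand of Flt1 linked to fatty acid uptake by the endothelium. Its levels were 50.2, 49.3 and 46.5 in sham and 56.6, 48.0 and 46.9 in tail-suspension, a log2 difference of 0.05 with a 95% interval of -0.20 to 0.30 (adjusted p = 0.755 by limma).

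**Figure D2:**
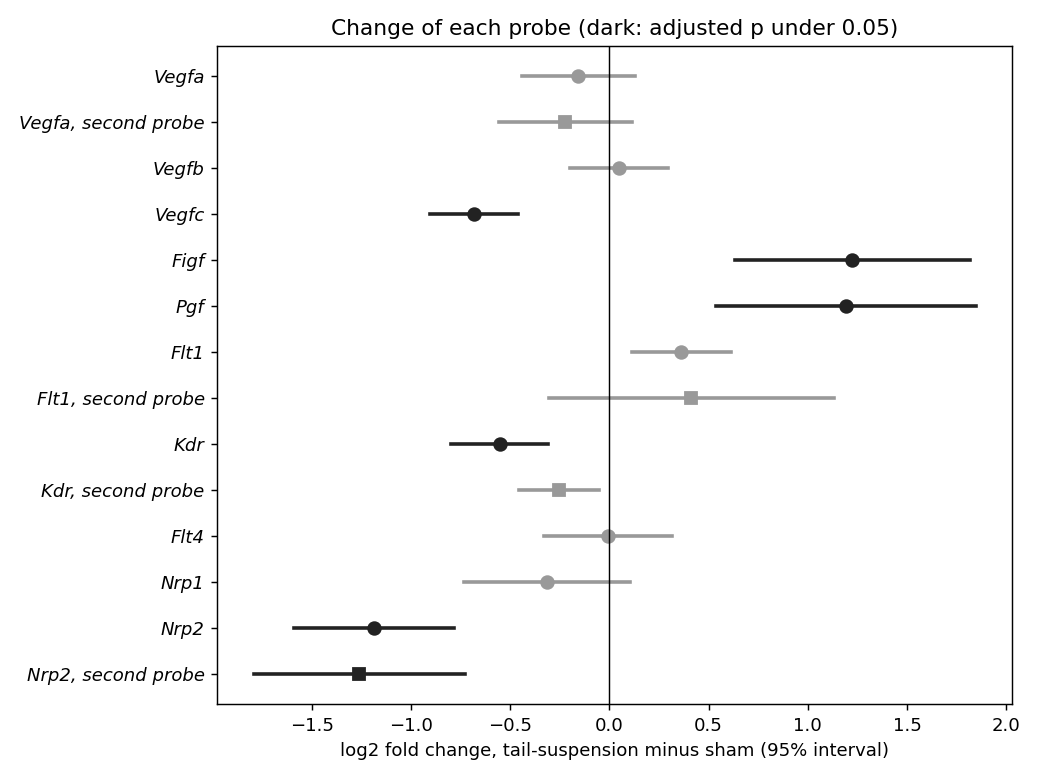
Log2 fold change of each of the 14 probes, tail-suspension minus sham, with its 95% interval from limma (circles for the brightest probe of a gene, squares for the second probe). Dark symbols have an adjusted p under 0.05 and grey ones do not, and the 6 dark symbols are Vegfc, Figf, Pgf, the brighter Kdr probe and both Nrp2 probes.

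Among the receptor tyrosine kinases, Kdr fell, Flt1 was higher without passing the threshold, and no change was called for Flt4. Kdr is the main signalling receptor for VEGF-A. Its brighter probe, averaged over 10 spots per array, gave 19.1, 19.3 and 19.1 in sham and 14.0, 11.6 and 13.8 in tail-suspension. The sham hearts were almost equal and all tail-suspended hearts lay below them. The log2 level fell by 0.55 with a standard error of 0.10 (adjusted p = 0.0162 by limma), from 4.26 ± 0.01 to 3.71 ± 0.15 (SD, n = 3 each), or 1.47-fold with a 95% interval of 1.24 to 1.74. This probe passed the threshold in 15 of 19 alternative settings. With the slide row as a block the log2 difference was -0.45 (adjusted p = 0.170 by limma), and the adjusted p was 0.0524 without sham replicate 1 and 0.0649 without sham replicate 2, by limma.

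The second Kdr probe gave 7.10, 6.46 and 6.83 in sham and 5.87, 5.65 and 5.57 in tail-suspension. In these levels its groups did not overlap either. Before division by the percentile they did, with processed intensities of 2049 to 2265 in sham and 1984 to 2120 in tail-suspension. The log2 difference of -0.25, with a standard error of 0.08, missed the threshold (adjusted p = 0.0745 by limma). This probe stood at 1.19-fold lower with a 95% interval of 1.04 to 1.37. The brighter probe differed by 0.30 more on the log2 scale in the same direction, a value of -0.30 with a standard error of 0.10 for the difference between the probes. That difference did not pass (unadjusted p = 0.0187, adjusted p = 0.138 by limma over 4774 probe pairs of 1 gene each, of which 3.06% passed). Both probes gave lower values for Kdr in tail-suspension.

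Flt1 encodes the high-affinity VEGF receptor that binds VEGF-A, VEGF-B and placental growth factor. Its brighter probe gave 40.4, 37.1 and 35.8 in sham and 53.2, 44.3 and 48.5 in tail-suspension. All tail-suspended hearts were above all sham hearts. The log2 difference was 0.36 with a standard error of 0.10 (adjusted p = 0.0515 by limma), or 1.29-fold with a 95% interval of 1.08 to 1.53, and it passed the threshold in 10 of 19 alternative settings, the 2-group test of the methods without adjustment among them, and was higher in all 19. The second Flt1 probe was designed on a cDNA clone from placenta, 92185 bases from the brighter one on the genome. It gave 0.0637, 0.0615 and 0.121 in sham and 0.0954, 0.137 and 0.0861 in tail-suspension, with overlapping groups and a log2 difference of 0.41 with a 95% interval of -0.31 to 1.13 (adjusted p = 0.355 by limma). With another background correction (normexp) its value turned to -0.03 on the log2 scale, so it adds no direction for Flt1.

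Flt4 is the receptor for VEGF-C and VEGF-D. It gave 0.126, 0.139 and 0.124 in sham and 0.147, 0.136 and 0.107 in tail-suspension. These are dim signals, with processed intensities of 37.3 to 50.9 on arrays whose 75th percentile lay between 300.01 and 375.04. The groups overlapped and the log2 difference was -0.01 with a 95% interval of -0.33 to 0.31 (adjusted p = 0.969 by limma), while its sign changed in 4 of 19 alternative settings.

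Among the neuropilins Nrp2 fell and no change was called for Nrp1, and the difference between their changes was not tested. Nrp1, a co-receptor of Kdr for VEGF-A, gave 1.87, 1.79 and 1.80 in sham and 1.91, 1.18 and 1.38 in tail-suspension. Tail-suspension replicate 1 lay above all sham hearts and the other two below them. The log2 difference was -0.32 with a 95% interval of -0.73 to 0.10 (adjusted p = 0.233 by limma), and it was -0.51 (adjusted p = 0.0473 by limma) without tail-suspension replicate 1 and 0.07 with the slide row as a block.

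Nrp2, a co-receptor of Flt4 for VEGF-C and a receptor of class 3 semaphorins, gave 13.3, 14.6 and 20.1 in sham and 7.35, 7.26 and 6.19 in tail-suspension by its brighter probe. Its other probe, listed under a different RefSeq transcript from that of the brighter probe, gave 1.28, 1.58 and 2.29 in sham and 0.639, 0.821 and 0.643 in tail-suspension. On both probes every tail-suspended heart was below every sham heart, and sham replicate 3 was the highest of all. The log2 level fell by 1.19 with a standard error of 0.17 by the brighter probe (adjusted p = 0.0080 by limma), from 3.98 ± 0.31 to 2.79 ± 0.14 (SD, n = 3 each), or 2.27-fold with a 95% interval of 1.72 to 3.01. By the other probe it fell by 1.26 with a standard error of 0.22 (adjusted p = 0.0147 by limma), from 0.74 ± 0.42 to -0.52 ± 0.21 (SD, n = 3 each), or 2.39-fold with an interval of 1.65 to 3.47. With the slide row as a block the log2 differences were -1.10 (adjusted p = 0.101 by limma) and -1.38 (adjusted p = 0.108 by limma). The brighter probe passed in the other 18 of 19 alternative settings. The second probe missed the threshold without sham replicate 2 (adjusted p = 0.0518 by limma) and without tail-suspension replicate 3 (adjusted p = 0.0528 by limma).

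Within a gene, the fold changes of the paired probes did not differ past the threshold in any of the 4 pairs. The difference between the probes was 0.07 on the log2 scale for Nrp2 (standard error 0.12, adjusted p = 0.773 by limma), 0.07 for Vegfa (standard error 0.11, adjusted p = 0.779 by limma) and -0.05 for Flt1 (standard error 0.36, adjusted p = 0.957 by limma). For Nrp2, whose probes lay 21831 bases apart, both probes gave a fall of over 2-fold. The Flt1 pair carried the widest error of the 4, so only a large disagreement could have been seen there. A p over the threshold does not show that paired probes read the same change.

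**Figure D3:**
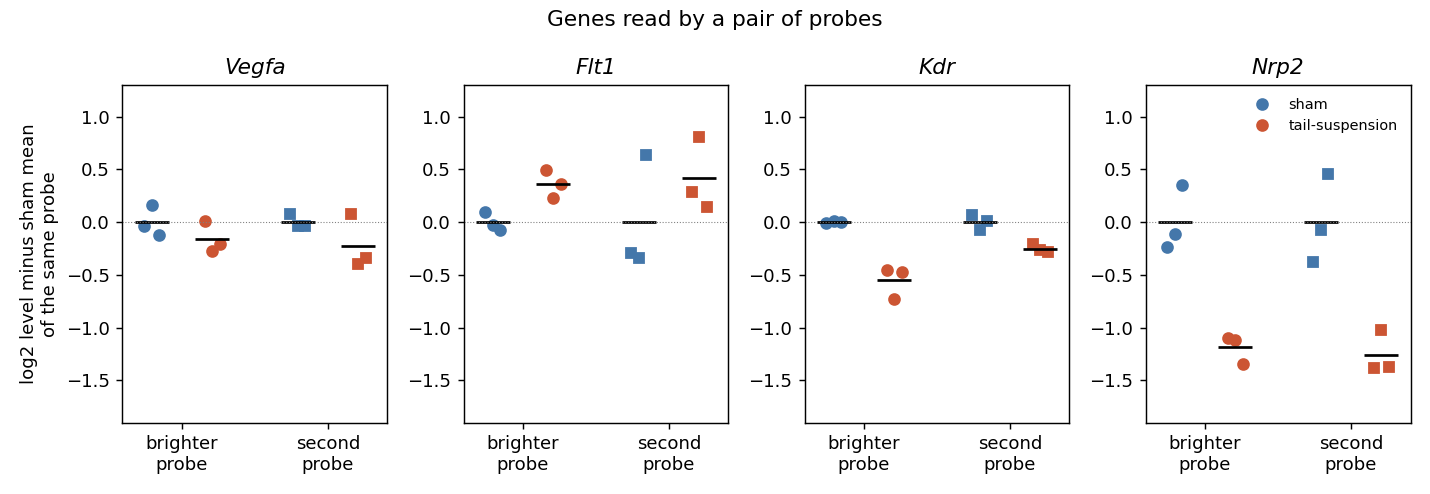
Log2 level on each array minus the sham mean of the same probe, for the 4 genes read by a pair of probes (circles for the brighter probe, squares for the second; blue for sham, orange for tail-suspension; bars are group means, n = 3). Both Nrp2 probes drop by 1.19 and 1.26, the Kdr probes by 0.55 and 0.25, and the second Flt1 probe scatters most.

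The promoters of the Nrp2, Vegfc and Figf genes are shown because changes were called in these genes and hypoxia signalling is a known regulator of this family. Each sequence holds the 250 bases before the start site that RefSeq annotates on GRCm38.p6, a build other than that of the probes, and lies outside the annotated gene. The windows of Kdr and Pgf, which were also called, lie at least partly inside their annotated genes and are not printed. All 10 genes were matched, with 12 start windows, and Figf was matched under its newer name Vegfd. Capitals mark the core of the hypoxia response element (ACGTG or GCGTG) or the TATA box (TATAAA), each searched on both strands.
Nrp2, chr1:62703067-62703316, plus strand: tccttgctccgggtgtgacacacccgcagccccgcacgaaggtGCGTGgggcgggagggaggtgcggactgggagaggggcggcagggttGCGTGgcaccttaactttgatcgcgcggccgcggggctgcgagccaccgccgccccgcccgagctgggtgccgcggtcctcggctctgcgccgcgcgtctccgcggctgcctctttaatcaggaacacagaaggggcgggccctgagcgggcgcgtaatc
Vegfc, chr8:54077282-54077531, plus strand: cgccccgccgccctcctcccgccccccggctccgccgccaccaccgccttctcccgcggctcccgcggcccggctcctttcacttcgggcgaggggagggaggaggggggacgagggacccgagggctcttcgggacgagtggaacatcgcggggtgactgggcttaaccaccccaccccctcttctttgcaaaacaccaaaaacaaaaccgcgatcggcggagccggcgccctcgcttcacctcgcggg
Figf, chrX:164373272-164373521, plus strand: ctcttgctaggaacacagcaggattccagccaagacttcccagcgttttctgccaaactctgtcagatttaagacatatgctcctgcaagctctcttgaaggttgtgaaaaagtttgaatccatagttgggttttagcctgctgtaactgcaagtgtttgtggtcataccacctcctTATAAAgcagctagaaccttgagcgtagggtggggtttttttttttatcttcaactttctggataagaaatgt
The Nrp2 window held 2 hypoxia response cores and 5 GC boxes (GGGCGG), with 72.4% G and C. The Vegfc window held no core, 2 GC boxes and no TATA box, with 71.6% G and C. The Figf window held a TATA box and neither of the other motifs, with 42.4% G and C, against a median of 52.4% over all windows. No match of one motif overlapped another in these windows. Of 32851 windows of the same length in RefSeq, 38.6% held a hypoxia response core, 32.7% a GC box and 12.4% a TATA box. Among the 12 windows of the family these numbers were 7, 10 and 2. No motif was found in the windows of all 3 genes shown. A match describes the letters of a window and is not a measured binding site.

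Most VEGF receptors are expressed mainly by endothelial cells, so they were also set against 12 endothelial marker genes. The mean log2 level of these markers lay between 2.74 and 2.88 in sham and between 2.41 and 2.65 in tail-suspension, a difference of -0.26. Of the 12 markers 5 were lower past the threshold and none was higher, against 10.6% lower and 10.5% higher over all 17140 tested genes. Cd34 showed the lowest log2 difference (-0.59, adjusted p = 0.0417 by limma) and Pecam1 the highest (0.19, adjusted p = 0.297 by limma). The other called markers, Cldn5, Emcn, Tie1 and Egfl7, were named after their values were seen, with log2 differences of -0.56, -0.50, -0.44 and -0.31. The rest of the list, named in the same way, was not called. Eng and Esam had log2 differences of 0.16 and 0.13. Those of Erg, Cdh5, Tek and Robo4 were -0.46, -0.30, -0.23 and -0.15. All 12 markers were well above background on all arrays, and the part of this shift in the receptor values was not tested.

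Relative to the endothelial markers of the same array, Flt1 was higher by 0.62 on the log2 scale and Nrp2 lower by a difference of -0.93 in tail-suspension. The Flt1 value lay between 2.28 and 2.52 in sham and between 2.85 and 3.19 in tail-suspension. The Nrp2 value lay between 0.92 and 1.45 in sham and between 0.23 and 0.24 in tail-suspension. Neither pair of ranges overlapped, and the 3 tail-suspended hearts were nearly equal for Nrp2. Kdr differed by -0.30 in the same measure, with values of 1.38 to 1.53 in sham and 0.91 to 1.38 in tail-suspension, so that its ranges met at their ends. Its difference was -0.18 without tail-suspension replicate 2 and -0.41 without tail-suspension replicate 3. The differences of Flt1, Nrp2 and Kdr had an exact two-sided permutation p of 0.1, the smallest that 3 against 3 can give, and an adjusted p of 0.167 over the 5 receptors. Flt4 differed by 0.25 (exact permutation p = 0.2, adjusted p = 0.25) and Nrp1 by -0.06 (exact permutation p = 0.8, adjusted p = 0.8), which turned to 0.12 without tail-suspension replicate 2. The design could not reach 0.05 for any of them.

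**Figure D4:**
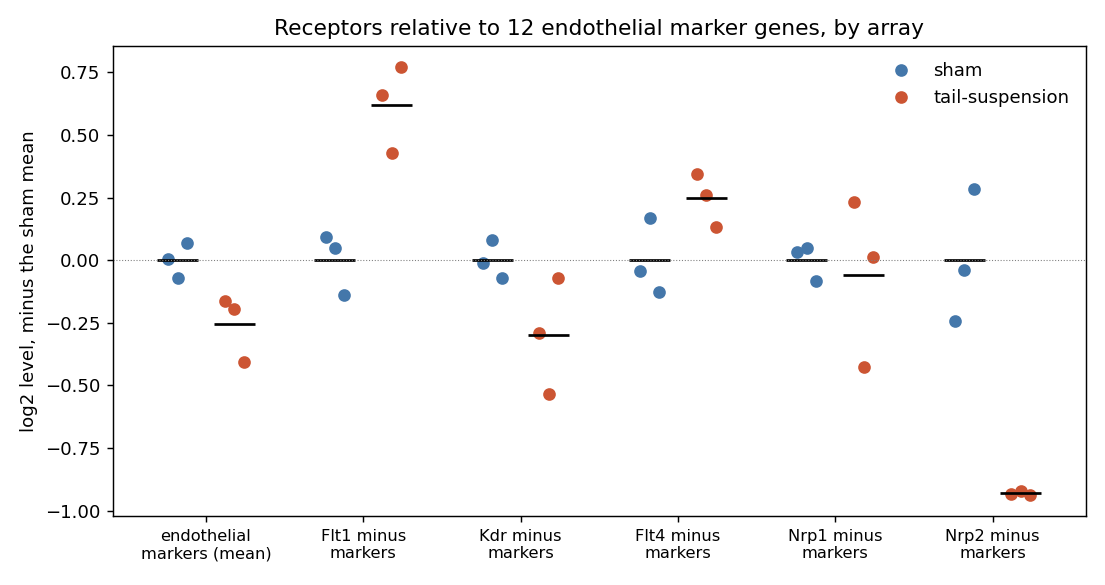
Mean log2 level of 12 endothelial marker genes (left) and log2 level of each receptor minus that mean (right), by array, with the sham mean of each set to 0 (blue for sham, orange for tail-suspension; bars are group means, n = 3). The markers are lower by 0.26 in tail-suspension, Flt1 stands 0.62 above its sham value and Nrp2 lies 0.93 below it.

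Markers of other cell types of the heart were read on the same arrays. Over all 17140 tested genes 10.5% were called higher and 10.6% lower, which is the background for each count below. For the lymphatic endothelium, which expresses Flt4 and responds to VEGF-C and VEGF-D, 4 of 6 markers could be tested and 1 passed, Mmrn1 (log2 difference 0.59, adjusted p = 0.0305 by limma). Lyve1 had the highest difference, 0.86 (adjusted p = 0.0758 by limma), and Prox1, the transcription factor that sets lymphatic identity, the lowest, -0.48 (adjusted p = 0.144 by limma). The mean of the 4 lay between -0.18 and 0.04 in sham and between -0.04 and 0.23 in tail-suspension, and the groups overlapped. Ccl21a and Reln could not be tested.

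Of 8 cardiomyocyte markers, 1 was lower, where 10.6% of all tested genes were. It was Actc1 (log2 difference -0.33, adjusted p = 0.0371 by limma), and the highest was Ryr2 (0.16, adjusted p = 0.449 by limma). The mean of the 8 was 8.43 to 8.53 in sham and 8.35 to 8.42 in tail-suspension, and all 8 were well above background on all 6 arrays. Of 7 fibroblast markers none passed, from Col1a1 (-0.95, adjusted p = 0.0647 by limma) to Dcn (0.34, adjusted p = 0.0582 by limma), with a mean of 2.89 to 3.11 in sham and 2.41 to 3.00 in tail-suspension. Of 8 mural cell markers Kcnj8 fell (-0.56, adjusted p = 0.0235 by limma) and Cnn1 had the highest difference (0.64, adjusted p = 0.152 by limma). Their mean was 2.32 to 2.70 in sham and 2.48 to 2.93 in tail-suspension.

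Among 6 tested macrophage markers 1 was called, the scavenger receptor Cd163, where 21.1% of all tested genes were called. Cd163 was well above background on 3 of 3 tail-suspension and 0 of 3 sham arrays. It therefore entered the test through the group where it was high, and its sham level is known only as a bound. Csf1r had the lowest difference, 0.13. The mean of the 5 measured on all arrays was 1.77 to 2.16 in sham and 2.04 to 2.73 in tail-suspension. Of 5 tested red cell markers Hba-a1, named after its value was seen, fell by 1.50 on the log2 scale (adjusted p = 0.0496 by limma). Alas2 had the lowest difference, -1.62 (adjusted p = 0.0612 by limma). Ahsp, the one with a value above 0, was tested through the tail-suspension group, and in sham 2 of 3 arrays measured it well above background, so its sham level is in part a bound. The mean of the 4 measured on all arrays was 3.94 to 4.80 in sham and 2.50 to 3.83 in tail-suspension. Of 6 adipocyte markers Cfd alone was tested, through the tail-suspension group, and it was not called. In sham 2 of 3 arrays measured it well above background, so its sham level is in part a bound. The part of these shifts in the values of the VEGF family was not tested.

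Genes around the VEGF pathway were read as 5 lists, against a background of 10.5% higher, 10.6% lower and 21.1% called in all over the 17140 tested genes. Of 25 tested genes whose products relay VEGF signals inside the cell, 2 were higher, 4 lower and 19 not called, a share near that background. Their median log2 difference was -0.12, against -0.02 over all tested genes. Pik3r1, a regulatory subunit of phosphoinositide 3-kinase, rose by 1.10 (adjusted p = 0.00862 by limma), and Nfatc1, a transcription factor downstream of calcineurin, by 0.35 (adjusted p = 0.0456 by limma). Ptk2, the focal adhesion kinase, fell by 0.63 (adjusted p = 0.0218 by limma), and Mapk14, the p38 kinase, by 0.60 (adjusted p = 0.0120 by limma). Of 15 partners and modulators of the receptors, 2 were higher and 1 lower, again near the background, with a median of 0.12. Itgb3, an integrin subunit that cooperates with Kdr, rose by 1.13 (adjusted p = 0.0335 by limma), Hey1, a Notch target, rose by 0.56 (adjusted p = 0.0145 by limma), and Dab2, an endocytic adaptor, fell by 0.73 (adjusted p = 0.0149 by limma).

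Of 10 tested genes that VEGF is known to induce, 1 was called, where 21.1% of all tested genes were. It was Ets1, a transcription factor of endothelial cells, which fell by 0.76 (adjusted p = 0.00436 by limma), and the list had a median of -0.06. Of 10 regulators of Vegfa, 3 were lower and none higher, where 10.6% and 10.5% of all tested genes were, with a median of -0.11. Egln3, an oxygen-sensing prolyl hydroxylase and itself a hypoxia target, fell by 1.05 (adjusted p = 0.00887 by limma). Vhl, which marks hydroxylated hypoxia-inducible factors for degradation, fell by 0.44 (adjusted p = 0.0332 by limma). Hif1a, named after its value was seen, fell by 0.36 (adjusted p = 0.0499 by limma).

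Semaphorins and plexins share the neuropilins with VEGF. Of 9 tested, 2 were higher and 2 lower, where 10.5% and 10.6% of all tested genes were, with a median of -0.28. Plxnd1, a plexin of endothelial cells, fell by 1.28 (adjusted p = 0.00345 by limma), and Sema3c, a ligand that acts through neuropilins, fell by 1.00 (adjusted p = 0.00591 by limma). Sema3g rose by 0.84 (adjusted p = 0.00793 by limma) and Sema3b by 0.54 (adjusted p = 0.0287 by limma), both of them class 3 semaphorins. The neuropilin that fell, Nrp2, thus stood beside ligands that moved in both directions.

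**Figure D5:**
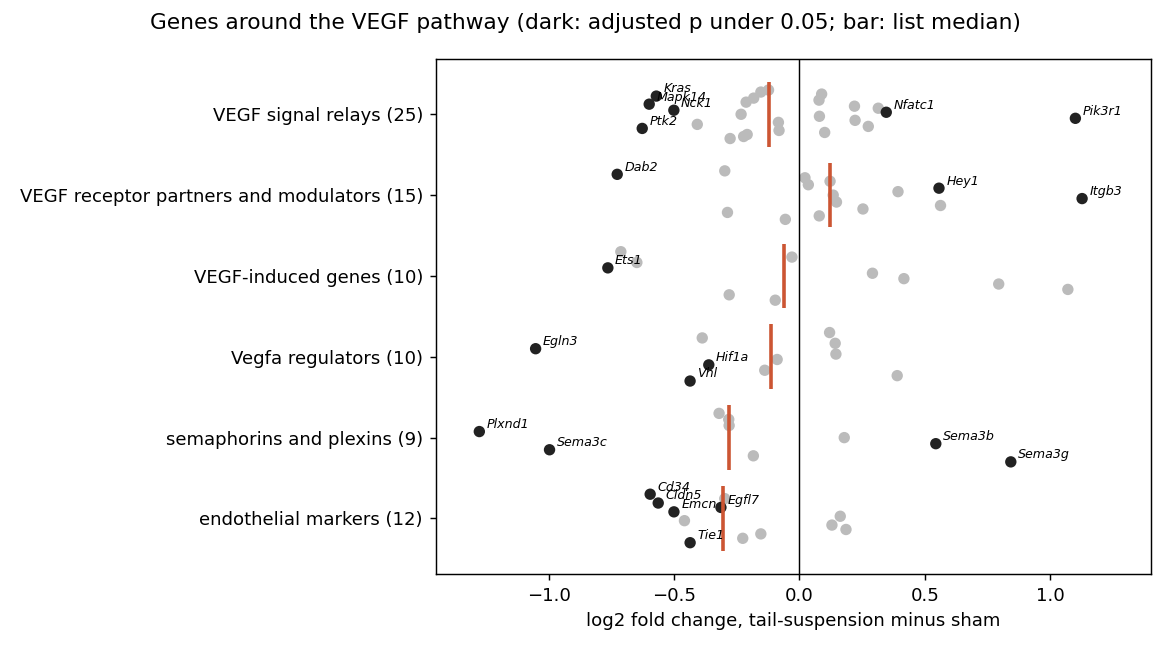
Log2 fold change, tail-suspension minus sham, of every tested gene in 5 lists around the VEGF pathway and in the endothelial marker list (number tested in brackets). Each point is a gene, dark points with names have an adjusted p under 0.05, the orange bar is the list median, and called genes lie on both sides of 0 in 3 of the 6 lists.

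The genes whose pattern over the 6 arrays was closest to that of Vegfa and Kdr were found by the smallest root mean square difference of the centred log2 values among 17119 genes. For Vegfa these were Tnnc1 (0.018), which encodes cardiac troponin C, Cma2 (0.039) and Tbc1d14 (0.040). For Kdr, Mtap7d1 (0.022) and Parp3 (0.032) were the nearest. They had log2 differences of -0.55 and -0.59, against -0.55 for Kdr. With 6 arrays such likeness is a description only.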

How the data were processed

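Total RNA of 3 sham and 3 tail-suspended hearts was measured on 1-colour Agilent arrays. The deposited scanner output holds, per the labels, Agilent Feature Extraction 10.7.1.1 intensities, of which the processed intensity is background-corrected. The authors also deposited log2 values for these arrays in 1 table, whose sorted columns differed by at most 0.117, so they were quantile normalized or close to it. Their array normalization is not given in the sources used here.

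In R 4.3.3 each log2 processed intensity was reduced by the 75th percentile of its array, without control and outlier spots, and spots of a probe were averaged. A probe was tested when well above background (50% of its spots or more) on every array of a group. Groups were compared with limma 3.58.1 (lmFit, eBayes, no covariates), Benjamini-Hochberg adjustment and a threshold of 0.05. Paired probes were compared by limma on their difference per array. The brightest tested probe stood for its gene. The steps were tested on simulated data.

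Members and gene lists were chosen with earlier results of these data known. Named are all member probes, in each pathway list the 2 highest and 2 lowest log2 fold changes past the threshold (or the largest change), in each marker list the highest and the lowest, and the 3 nearest patterns of Vegfa and Kdr, of which 1 is not reported here. Alternatives are given at the end. No pairing of animals by replicate number was assumed.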

Additional observations from a re-analysis of the deposited data

How the results depend on the processing

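The 6 called probes of the family kept their direction under all 19 alternatives, and the number called lay at 7 or 8 under normexp background correction, quantile normalization, another percentile, the authors' log2 values, array weights, robust eBayes with a trend, outlier spots kept, and a stricter filter. Without the filter on dim probes 2 were called (0 higher, 2 lower), by the methods' t-test after adjustment 3 (0 higher), and with the slide row as a block 0 (0 higher, 0 lower). The methods' t-test without adjustment called 8 of the family and 9493 of all probes. In the settings named above with 7 or 8 called, the count over all probes varied too. It ran from 5134 under normexp to 8284 with array weights. Over all probes, the count moved from 5675 to 1843 without the filter, to 2659 by the adjusted t-test and to 501 with the row. In the fit with the row, tail-suspension is compared with sham by its replicate 1 alone. Leaving out each array gave 2 to 7 called probes, 0 to 3 higher and 2 to 5 lower, with 2 called without sham replicate 2 and 3 without sham replicate 1 or tail-suspension replicate 3. None was higher in these 3 fits, and 1 was higher without tail-suspension replicate 1. These fits tested fewer arrays. Their counts over all tested probes moved as well, from 1769 without sham replicate 2 to 5577 without tail-suspension replicate 2. They were 2493 without sham replicate 1 and 2074 without tail-suspension replicate 3, against 5675 in the main fit.

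With the replicate number as a block (replicate block), 5 were called, 1 higher (Pgf, 1.19, adjusted p = 0.0170 by limma) and 4 lower, Figf was no longer called, and all probes called fell to 3157. Deviations of same-numbered animals correlated at -0.02, -0.02 and 0.05. With 3 animals per group this cannot show whether the numbers pair the animals.

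Signs changed only for values that were not called. Flt1's second probe was -0.032 under normexp. Flt4 was 0.0076 under another percentile, 0.18 with the row, 0.040 without sham replicate 2 and 0.12 without tail-suspension replicate 3 (-0.10 to 0.12 with each array left out). Vegfb was -0.0019 by the authors' log2 values and -0.035 without tail-suspension replicate 1 (-0.035 to 0.10 with each array left out). With the row, Nrp1 was 0.070, Vegfa 0.010 and its second probe 0.072. The difference between the Flt1 probes was 0.46 under normexp, 0.0052 under quantile normalization, 0.022 by the authors' values, 0.21 with the row, and -0.41 to 0.21 with each array left out. The Nrp2 pair differed by -0.088 under normexp and by -0.031 to 0.16 with each array left out (-0.031 without tail-suspension replicate 1), and the Vegfa pair by -0.062 with the row. Over all genes 350 pairs differed under normexp, 23 with the replicate block and 1 with the row. Relative to endothelial markers, Flt4 was 0.046 under normexp, Nrp1 was 0.12 without tail-suspension replicate 2 and -0.21 without tail-suspension replicate 1, and Kdr was -0.18 to -0.41 with each array left out. With the mean of all tested probes of a gene, 1 fibroblast and 2 red cell markers were called. The cause of these changes was not tested. All 14 probes were well above background on all 6 arrays.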
